A study of Homo sapiens with 12 samples.

Results

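PFKP, GPI, PDK1 and HIF1A, 4 genes of glucose breakdown and the hypoxia response, were followed across 5 drugs in H460 cells, a human lung cancer line with wild-type p53. They were found by their symbols in the platform annotation, and are 4 of the 5499 named genes, or of 7739 features when probes without a gene name are counted. Each gene has 1 probe annotated to it alone, with a value on all 12 arrays. HIF1A has 1 further probe annotated to both HIF1A and its antisense gene HIF1A-AS2, and that probe was not used. No source used here gives the part of each transcript that a probe reads, or whether the arrays tell strands apart.

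In glycolysis, glucose 6-phosphate is turned into fructose 6-phosphate by the isomerase that GPI encodes, and phosphofructokinase, of which PFKP encodes the platelet-type form, then adds a phosphate in a committed step. At the end of the pathway pyruvate either becomes lactate or enters mitochondria, where the pyruvate dehydrogenase complex turns it into acetyl-CoA, and the kinase encoded by PDK1 phosphorylates that complex and shuts it down. HIF1A encodes the oxygen-regulated subunit of hypoxia-inducible factor 1, which in low oxygen pairs with ARNT, binds DNA at hypoxia response elements and raises transcription of many glycolytic genes and of PDK1. The factor is controlled mainly through the stability of its protein, so its RNA is only one of the levels at which it is set.

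RNA of treated cells and of untreated cells was hybridised together on two-channel arrays after 24 h. The pyrimidine analog 5-fluorouracil (5-FU), which blocks thymidylate synthesis and enters RNA, was given at 1 µM. The nucleoside analog cytarabine, which stalls DNA synthesis, was given at 0.2 µM, and cisplatin, which crosslinks DNA, at 5 µM. Paclitaxel, which stabilises microtubules, was given at 5 nM, and cytochalasin D, which blocks actin filament growth, at 0.2 µM. Each drug has 2 replicates. Those of 5-FU were each hybridised in both channel orientations, which makes 4 arrays, and every other drug has 2 arrays with treated RNA in channel 1. Each drug was used at 1 dose, so a difference between drugs is a difference at these doses. Separate cultures are not named for the replicates, so p-values measure only the spread between these samples, which may be technical. The same untreated RNA may have served several drugs, since the labels leave this unsaid, so the comparisons with untreated RNA may share it. The RNA is from whole cultures, where fewer cells of a kind and less RNA per cell cannot be told apart. The values are ratios without levels, so markers of the cell line could not be checked, and no gene's level is set against another's.

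Values were missing for 21.5 to 46.7% of probes on the arrays with 5-FU and for 6.44 to 14.5% on the rest. Arrays of the same drug and orientation correlated at 0.63 to 0.82 over features, and arrays of different drugs with treated RNA in channel 1 at 0.10 to 0.73. The deposited values do not state which channel is the numerator. They were read as channel 1 over channel 2, a likely but not stated direction, because MDM2, a target gene of p53, is then higher on every array of the DNA-damaging drugs 5-FU (1.15 to 1.80) and cisplatin (2.57 and 2.74). Turned that way, each value below is a log2 ratio of treated over untreated RNA, and its log base is taken as 2 because none is stated. An array value still carries any difference between the channels. The fit measured that channel component for each gene from the 5-FU arrays of both orientations and removed it from the other drugs, so their fitted ratios differ from their array values. The standard errors of those 4 drugs rest on an assumed error of that component and may be too small. A gene was called where limma's Benjamini-Hochberg adjusted p was under 0.05 over all features tested.

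The promoter letters below show which of the 4 genes carry, within 250 bases before an annotated start, the core of the hypoxia response element, ACGTG or GCGTG on either strand. They are 30-base stretches of RefSeq's promoter table on GRCh38.p14, plus strand, 5′ to 3′, and capitals mark each match, where CACGT is ACGTG read on the other strand.
PFKP, its start 3, chr10:3069038-3069067: ccacgagcgcctACGTGatgcccggcccgt
PFKP, its start 4, chr10:3104536-3104565: agtcctctgtgtGCGTGtcctgttcccagt
PFKP, its start 4, chr10:3104579-3104608: acattctcagtGCGTGgGCGTGaaccccac
GPI, its start 1, chr19:34364818-34364847: acactgcctgtaACGTGgaaggtgttcgat
HIF1A, its start 1, chr14:61695297-61695326: tggctgagagcgGCGTGggctggggtgggg
PDK1, its start 2, chr2:172556060-172556089: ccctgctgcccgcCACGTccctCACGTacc
PFKP holds a match in 2 of its 4 windows, GPI in its only window, HIF1A in 1 of 2 and PDK1 in 1 of 2. The PDK1 stretch ends at the base before the start and holds matches 17 and 8 bases before it, while the GPI match lies 162 bases and the HIF1A match 204 bases before the start. Of 35116 windows in the table, 43.2% hold at least 1 match, so a match here is common. None of these stretches holds CACGTG, the palindrome bound by MYC and related factors, which would overlap ACGTG. The letters are a description of these windows and say nothing of binding in H460 cells.

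PFKP (gene ID 5214, chr10:3067548-3136805 on GRCh38.p14) fell 2.10-fold with 5-FU, and by smaller amounts with cisplatin and cytochalasin D. On the 5-FU arrays with treated RNA in channel 2 its log2 ratio was -1.12 and -1.40, and on those with treated RNA in channel 1 it was -0.84 and -0.93. The cisplatin arrays gave -0.34 and -0.21, and the cytochalasin D arrays -0.29 and -0.32. Cytarabine gave -0.07 and -0.04, and paclitaxel 0.01 and -0.15. All 4 of the 5-FU arrays lay below every array of the other drugs. The share of all features whose 5-FU arrays lie apart was not computed, so this only describes the values.

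The fitted 5-FU ratio of PFKP was -1.07 ± 0.07 (SE, n = 2 replicates), a 2.10-fold fall with a limma adjusted p of 4.8e-05. This was the change at place 78 from the lowest of 5043 features tested, of which 12% were called lower with 5-FU, 5.41% higher and 17.4% in either direction. For cisplatin the fitted ratio was -0.46 ± 0.08 (1.38-fold lower, adjusted p = 0.0108), where 7.76% of 4936 features were called lower and 16.2% in either direction. For cytochalasin D it was -0.49 ± 0.08 (1.41-fold lower, adjusted p = 0.0132), where 6.45% of 4915 features were called lower, 4.37% higher and 10.8% in either direction. Fitted on the 5-FU arrays alone, PFKP with 5-FU kept its ratio but not its call (limma adjusted p = 0.0693). There 0 features passed, against 880 in the fit of all arrays, where 1421 had an unadjusted p under 0.05. The smaller falls kept their direction on every array, but their calls depended on single replicates. The cisplatin call was lost without cisplatin replicate 1 (-0.40, adjusted p = 0.0749), and the cytochalasin D call without cytochalasin D replicate 1 (-0.51, adjusted p = 0.0865) or replicate 2 (-0.48, adjusted p = 0.0888). The fitted ratios with cytarabine (-0.24, adjusted p = 0.0759) and paclitaxel (-0.26, adjusted p = 0.105) did not pass.

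**Figure D1:**
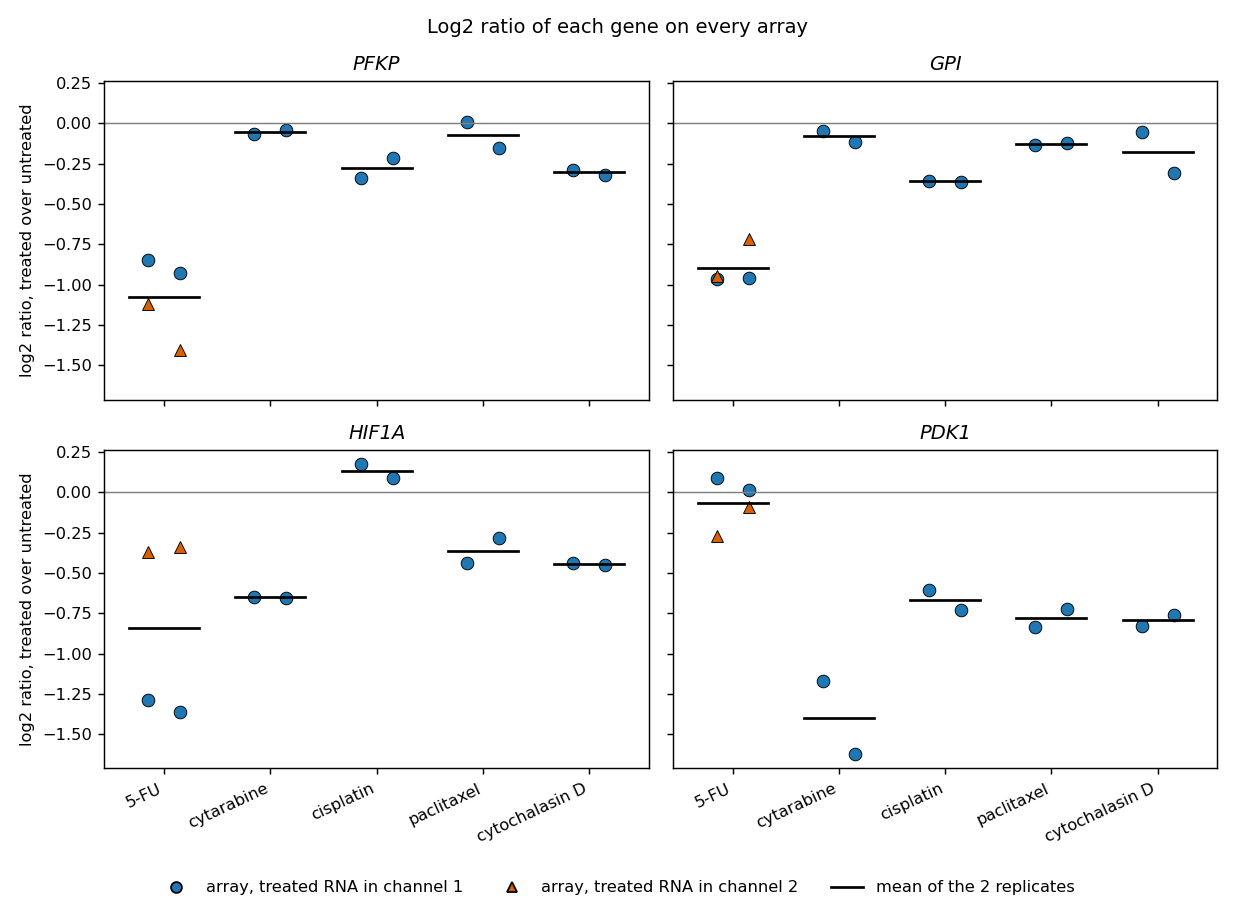
Log2 ratio of treated over untreated RNA (vertical axis) of PFKP, GPI, HIF1A and PDK1 on each array, by drug, with circles for treated RNA in channel 1, triangles for treated RNA in channel 2 and bars for the mean of the 2 replicates. The 5-FU points of PFKP (-1.40 to -0.84) and GPI (-0.96 to -0.72) lie below those of every other drug, those of PDK1 (-0.27 to 0.09) lie above, and those of HIF1A split by channel. How many of all features separate in this way was not counted.

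GPI (gene ID 2821, chr19:34359718-34402413) fell with 5-FU, and passed the test with no other drug. Its 5-FU arrays read -0.94 and -0.72 with treated RNA in channel 2, and -0.96 and -0.96 with treated RNA in channel 1. Its cisplatin arrays read -0.36 and -0.36. The arrays of cytarabine (-0.05 and -0.11), paclitaxel (-0.14 and -0.12) and cytochalasin D (-0.05 and -0.31) lay closer to 0. As for PFKP, the 5-FU arrays did not overlap those of any other drug, and again the share of all features that do so was not computed.

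The fitted 5-FU ratio of GPI was -0.90 ± 0.07 (SE, n = 2 replicates), which is 1.86-fold lower with a limma adjusted p of 0.000108. On the 5-FU arrays alone the call was lost (adjusted p = 0.0693). For cisplatin the fitted ratio was -0.29 ± 0.09 (95% interval -0.49 to -0.10) and its adjusted p of 0.0537 missed the threshold. Without the channel component the cisplatin ratio was -0.36 and passed (adjusted p = 0.0143), and it also passed at -0.29 without cytochalasin D replicate 1 (adjusted p = 0.0434) or replicate 2 (adjusted p = 0.0434). The remaining fitted ratios were -0.02 with cytarabine, -0.07 with paclitaxel and -0.12 with cytochalasin D, with adjusted p of 0.912, 0.663 and 0.414.

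PDK1 (gene ID 5163, chr2:172555373-172724312) had 5-FU at the other end of its order of drugs. It fell with cytarabine, cisplatin, paclitaxel and cytochalasin D, and gave values around 0 with 5-FU. The 5-FU arrays read -0.27 and -0.09 with treated RNA in channel 2, and 0.09 and 0.02 with treated RNA in channel 1. The cytarabine arrays read -1.17 and -1.62, below all other arrays. Cisplatin gave -0.60 and -0.73, paclitaxel -0.83 and -0.73, and cytochalasin D -0.83 and -0.76, and these 3 drugs overlapped one another. No array of these 4 drugs reached the range of the 5-FU arrays, a separation whose share over all features was not computed either.

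The fitted cytarabine ratio of PDK1 was -1.51 ± 0.12 (SE, n = 2 replicates), a 2.85-fold fall with a limma adjusted p of 0.000516. It stood at place 36 from the lowest of 4828 features, of which 11.1% were called lower with cytarabine, 10.6% higher and 21.7% in either direction. With paclitaxel PDK1 fell by 0.90 (1.86-fold, adjusted p = 0.00811) in a comparison where only 3.97% of 4915 features were called lower, 2.6% higher and 6.57% in either direction. With cytochalasin D it fell by 0.91 (1.88-fold, adjusted p = 0.00624), and with cisplatin by 0.78 (1.72-fold, adjusted p = 0.00654). The 5-FU ratio was -0.06 ± 0.10, with a 95% interval of -0.30 to 0.17 and an adjusted p of 0.745. The cisplatin call was lost without cisplatin replicate 2 (-0.72, adjusted p = 0.0505), and the paclitaxel call without paclitaxel replicate 1 (-0.84, adjusted p = 0.0689).

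HIF1A (gene ID 3091, chr14:61695513-61748258) fell with 5-FU in both channel orientations, but by amounts that differed with the channel. The 5-FU arrays read -0.37 and -0.34 with treated RNA in channel 2, and -1.29 and -1.36 with treated RNA in channel 1. Cytarabine gave -0.65 and -0.65, cytochalasin D -0.44 and -0.45, paclitaxel -0.44 and -0.28, and cisplatin 0.17 and 0.09. Cisplatin was thus the only drug whose arrays were above 0, and the 5-FU arrays overlapped those of other drugs only where their treated RNA was in channel 2.

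The fitted 5-FU ratio of HIF1A was -0.84 ± 0.06 (SE, n = 2 replicates), which is 1.79-fold lower with a limma adjusted p of 6.1e-05. It passed in each orientation alone, at -0.35 with treated RNA in channel 2 (adjusted p = 0.00497) and at -1.33 with treated RNA in channel 1 (adjusted p = 1.56e-05), each with the arrays of the other drugs in the fit, and not on the 4 arrays of 5-FU alone (adjusted p = 0.0693). The fitted cisplatin ratio was 0.62 ± 0.07, a 1.53-fold rise with an adjusted p of 0.00175, where 8.49% of features were called higher. The fitted ratios with cytarabine (-0.17, adjusted p = 0.125), paclitaxel (0.12, adjusted p = 0.303) and cytochalasin D (0.04, adjusted p = 0.750) did not pass.

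The channel component of HIF1A was -0.49 on the log2 scale, from -0.46 in replicate 1 and -0.51 in replicate 2 of 5-FU. Of 5123 features with such a value, 2.75% were as far from 0 or farther, and their median size was 0.09. PFKP had a component of 0.19, PDK1 of 0.12 and GPI of -0.06. When the component was left out, the HIF1A ratios of the 4 other drugs were their array means. Cytarabine then passed at -0.65 (adjusted p = 0.000294), cytochalasin D at -0.45 (adjusted p = 0.00326) and paclitaxel at -0.36 (adjusted p = 0.00858), and cisplatin did not, at 0.13 (adjusted p = 0.177). Whether the component measured with 5-FU holds on the arrays of the other drugs was not tested. The size of HIF1A against untreated RNA, and its sign with paclitaxel and cytochalasin D, therefore turned on the component. From the lowest, the drugs ran 5-FU, cytarabine, cytochalasin D, paclitaxel and cisplatin with and without it. The order of the last 4 is kept by construction, since the component shifts them equally, and only the place of 5-FU could change. Without the component 5-FU differed from cytarabine by only -0.19 (limma adjusted p = 0.133). For PDK1 the calls with all 4 other drugs held without the component, at -1.40 with cytarabine, -0.67 with cisplatin, -0.78 with paclitaxel and -0.79 with cytochalasin D. PFKP also kept its calls, at -0.27 with cisplatin and -0.30 with cytochalasin D.

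**Figure D2:**
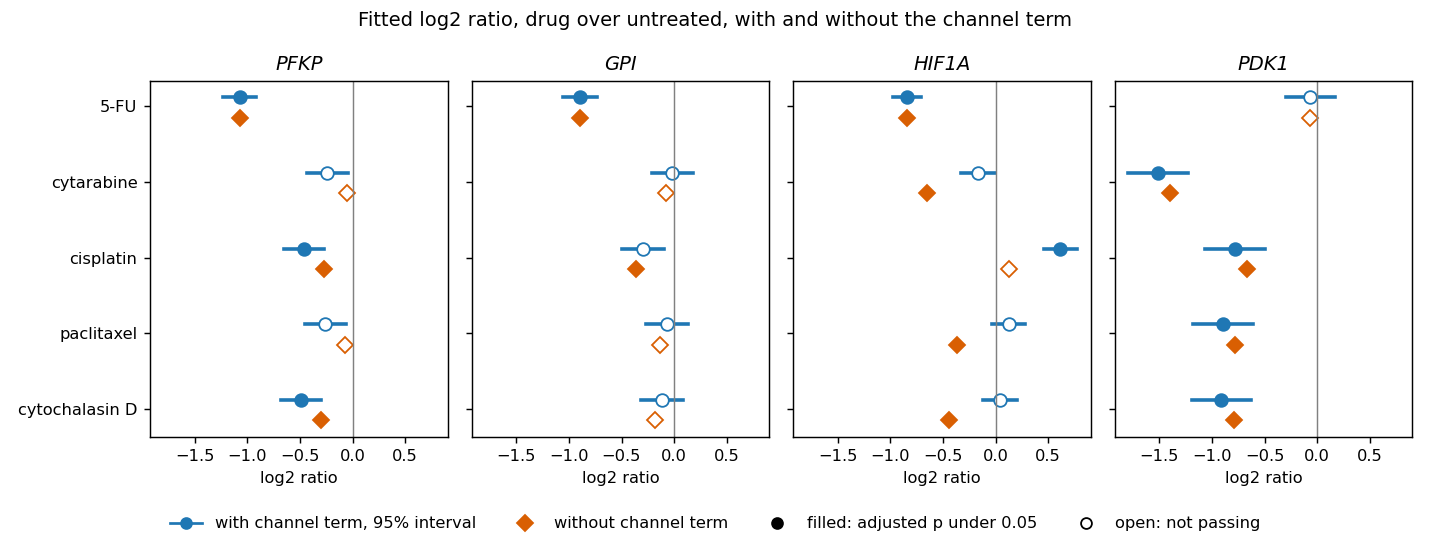
Fitted log2 ratio of each gene (horizontal axis) by drug, with the channel component removed (circles, bars are 95% intervals) and without that step (diamonds), filled where the adjusted p was under 0.05. The HIF1A ratios of cytarabine, cisplatin, paclitaxel and cytochalasin D move by 0.49 between the settings, and those of PDK1 stay below 0 in both.

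The drugs were then compared with each other, in 10 pairs for each gene, with p-values adjusted over all features of a pair. Of the 40 differences 20 passed, and these were all 16 that involve 5-FU and 4 of the other 24. With all features as the background, 19.2% were called between 5-FU and cytarabine, 15% between 5-FU and cisplatin, 11.9% between 5-FU and paclitaxel and 12.8% between 5-FU and cytochalasin D. The pairs with 5-FU share the 5-FU arrays. PFKP was lower with 5-FU than with each other drug: 5-FU minus the other drug was -0.83 for cytarabine, -0.61 for cisplatin, -0.81 for paclitaxel and -0.58 for cytochalasin D on the log2 scale (limma adjusted p 0.00227 to 0.0118). For GPI these differences were -0.88, -0.60, -0.83 and -0.78 in the same order (adjusted p 0.00212 to 0.00990). The largest of them, those from cytarabine, are 1.78-fold for PFKP and 1.84-fold for GPI. The PFKP difference from cytochalasin D was lost without cytochalasin D replicate 1 (-0.57, adjusted p = 0.0592) or replicate 2 (-0.60, adjusted p = 0.0516). The GPI difference from cisplatin was lost without 5-FU replicate 1 (-0.60, adjusted p = 0.0528).

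PDK1 was higher with 5-FU than with cytarabine by 1.45 (2.73-fold, limma adjusted p = 0.00126), cisplatin by 0.72 (1.64-fold, adjusted p = 0.0208), paclitaxel by 0.83 (1.78-fold, adjusted p = 0.0130) and cytochalasin D by 0.85 (1.80-fold, adjusted p = 0.0120). HIF1A was lower with 5-FU than with each other drug, with a difference of -1.46 from cisplatin (2.74-fold, adjusted p = 0.000239), -0.96 from paclitaxel, -0.88 from cytochalasin D and -0.67 from cytarabine (adjusted p 0.000893 to 0.00255 for these 3 drugs). The 5-FU arrays with treated RNA in channel 1 have the orientation of the other drugs, and with these alone, a choice made after the data were seen, all 16 differences passed (adjusted p 0.000146 to 0.0118). Their sizes are equal to those above by construction, since the fit removes the channel component from the other drugs, so equal sizes are no check. With both orientations and no channel component, HIF1A differed between 5-FU and cytarabine by only -0.19 (adjusted p = 0.133). For PDK1, the differences of 5-FU from cisplatin, paclitaxel and cytochalasin D were lost without 5-FU replicate 1 (0.68, 0.80 and 0.81, adjusted p 0.0767 to 0.113) or replicate 2 (0.75, 0.87 and 0.88, adjusted p 0.0531 to 0.0790), and the difference from cytarabine was kept. Leaving out 1 replicate of the other drug also ended these 3 calls: cisplatin replicate 1 (0.78, adjusted p = 0.0514) or 2 (0.66, adjusted p = 0.0896), paclitaxel replicate 1 (0.78, adjusted p = 0.0648) and cytochalasin D replicate 1 (0.81, adjusted p = 0.0593).

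Among the 4 drugs with treated RNA in channel 1 the channel component cancels if it is the same on all their arrays, which was not tested. HIF1A was lower with cytarabine than with cisplatin, with a difference of -0.78 (1.72-fold, limma adjusted p = 0.00199), in a pair where 21.8% of 6991 features were called. It was higher with cisplatin than with cytochalasin D, by 0.58 (1.49-fold, adjusted p = 0.00671), where 7.85% of features were called, and than with paclitaxel, by 0.49 (1.41-fold, adjusted p = 0.0154), where 5.79% were called. The difference from paclitaxel was lost without cisplatin replicate 1 (0.45, adjusted p = 0.0821), cisplatin replicate 2 (0.54, adjusted p = 0.0538) or paclitaxel replicate 1 (0.42, adjusted p = 0.0779). PDK1 differed between cytarabine and cisplatin by -0.73 (1.66-fold lower with cytarabine, adjusted p = 0.0128), and this was lost without cisplatin replicate 1 (-0.67, adjusted p = 0.0650).

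The remaining differences did not pass, and their intervals bound them. For PDK1, cytarabine minus paclitaxel was -0.62 (95% interval -0.94 to -0.29, limma adjusted p = 0.110) and cytarabine minus cytochalasin D was -0.60 (interval -0.93 to -0.28, adjusted p = 0.0639). Between cytarabine and paclitaxel no feature of 6984 passed, 0% of them, by limma with ordinary or robust moderation or with the arrays of those drugs alone, although 1268 had an unadjusted p under 0.05. Between cytarabine and cytochalasin D 3.41% of features were called, and PDK1 passed there without cytarabine replicate 1 (-0.83, adjusted p = 0.0289). Neighbours in the order of PDK1 that were close had wide intervals: -0.31 to 0.34 for paclitaxel minus cytochalasin D, a pair with 0.209% of features called, and -0.21 to 0.44 for cisplatin minus paclitaxel. For PFKP the differences among these 4 drugs ran from -0.20 to 0.25, and for GPI from -0.23 to 0.28. By limma 0 of 6 passed for each gene, while an unadjusted p was under 0.05 for 2 higher differences of PFKP and for 1 higher and 1 lower difference of GPI. The widest interval bounds were -0.43 and 0.47 for PFKP and -0.46 and 0.51 for GPI. For HIF1A, paclitaxel minus cytochalasin D was 0.08 (interval -0.10 to 0.27), and cytarabine differed from them by -0.29 and -0.20 without passing (adjusted p = 0.147 and 0.180).

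**Figure D3:**
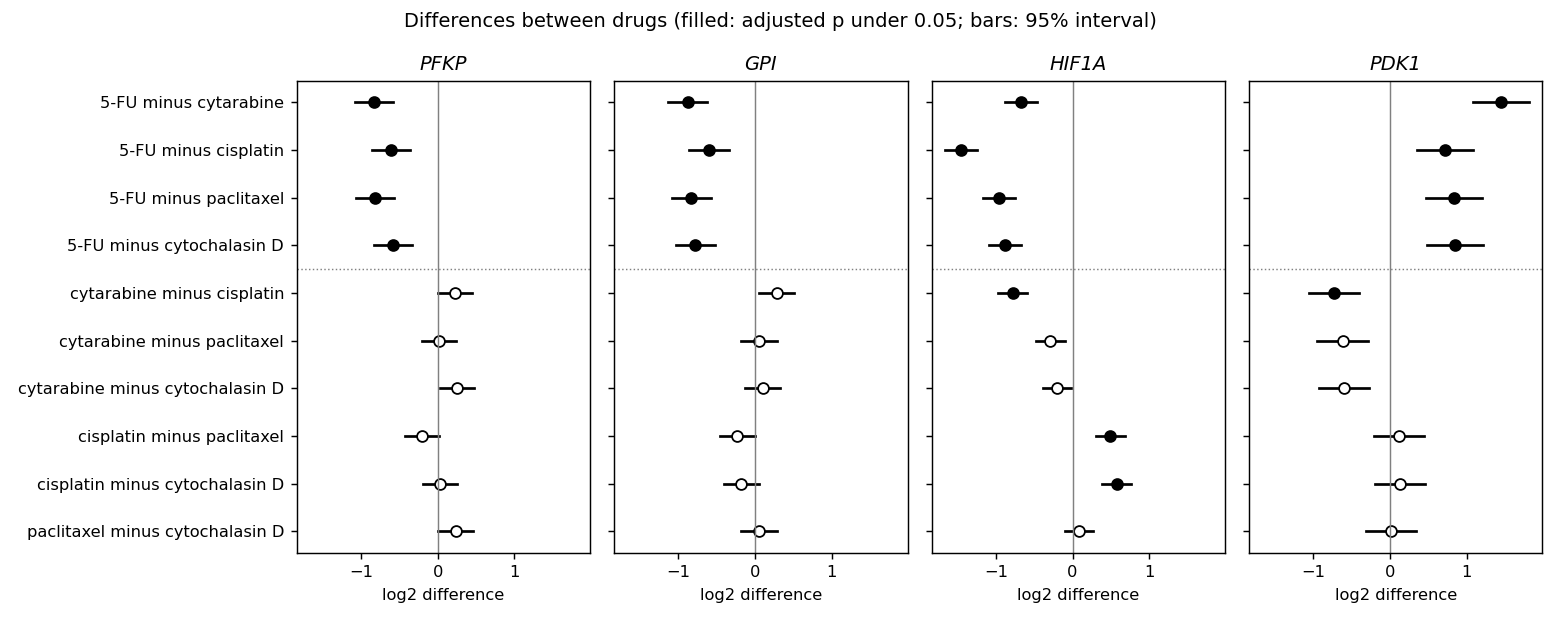
Log2 difference between drugs (horizontal axis, first named minus second) for the 10 pairs and 4 genes, with 95% intervals as bars and filled points where the adjusted p was under 0.05. The pairs with 5-FU stand above the dotted line and are all filled, with PDK1 on the opposite side of 0 from PFKP, GPI and HIF1A.

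Likeness of pattern was measured as Pearson's r over the 10 replicates with 2452 other named genes. The replicate values were taken before the channel component was removed, so with drugs other than 5-FU they, and the means given here, still carry it. It is a description without a test, since the replicates come in pairs of a drug and share channel orientation. PFKP and GPI had r = 0.93 with each other, at place 16 from PFKP and 21 from GPI. The genes most like PFKP were PAIP1, which encodes a translation factor that binds poly(A)-binding protein (r = 0.98), the G protein subunit gene GNB1 (0.98) and TRAP1, a mitochondrial chaperone gene (0.97). Those most like GPI were the motor protein gene MYO1C (0.98), CLNS1A, which acts in the assembly of splicing particles (0.98), and TRAP1 (0.97). The mean ratios of TRAP1 were -1.07 with 5-FU and -0.18 to 0.17 with the other drugs, lowest with 5-FU as for PFKP and GPI.

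PDK1 correlated at -0.85 with PFKP and -0.84 with GPI. The genes most like it were SLC29A1, which encodes a transporter that carries nucleosides and nucleoside drugs into cells (0.96), DNA2, a nuclease and helicase gene of DNA replication (0.95), and FAM149B1 (0.94). FAM149B1 had mean ratios of 0.14 with 5-FU and -1.56 with cytarabine, of similar size to those of PDK1, whereas DNA2 ranged only from -0.19 to 0.14. HIF1A had r = 0.45 to PFKP, 0.34 to GPI and -0.12 to PDK1. With drugs other than 5-FU its values here carry its channel component of -0.49, and likeness with that removed was not computed. The genes most like HIF1A were the splicing gene IK (0.97), the RNA helicase gene DDX1 (0.94) and the chromatin remodelling gene SMARCE1 (0.93), and the mean ratio of each was highest with cisplatin and lowest with 5-FU.

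The other genes of the same pathways were read from the same fit. Of 32 glycolysis genes listed, 17 are on the array and 11, PFKP and GPI included, had the values the fit needs. With 5-FU 4 of the 11 fell, where 12% of all features did, and none rose: beside PFKP and GPI these were the aldolase gene ALDOA (-0.27, limma adjusted p = 0.0191) and the phosphoglycerate mutase gene PGAM1 (-0.24, adjusted p = 0.0234). The median of the 11 was -0.18, against 0.01 over all features tested. With each drug the count and median include PFKP and GPI, which were chosen with earlier results of these data known. The comparison with all features is therefore not independent of that choice. PDK1 and HIF1A, chosen in the same way, are likewise counted in their lists below. With cisplatin 3 fell, where 7.76% of all features did: HK1, a hexokinase gene (-0.61, adjusted p = 0.0393), PFKP and PGAM1 (-0.30, adjusted p = 0.0273), and the median was -0.26 against 0.01. With cytochalasin D PFKP and PGAM1 (-0.29, adjusted p = 0.0374) fell, where 6.45% of all features did, and the median was -0.16 against 0.02. With cytarabine and paclitaxel limma called 0 of the 11, while 1 gene was higher and 1 lower with cytarabine, and 1 higher and 2 lower with paclitaxel, at an unadjusted p under 0.05. PFKM, the muscle-type phosphofructokinase gene, passed with no drug, and its 5-FU ratio was -0.05 where that of PFKP was -1.07. Without the channel component more genes could be tested, and the calls were 6 lower and 1 higher of 13 with 5-FU, 6 lower of 16 with cisplatin, 6 lower of 16 with cytochalasin D, 2 lower of 16 with cytarabine and 1 lower of 16 with paclitaxel. The gene higher with 5-FU was PFKFB1 (1.89), named after its value was seen. Its only 5-FU value is that of replicate 1 with treated RNA in channel 1. Over all features 20.9% were called in either direction in that fit with 5-FU, 15.6% with cisplatin, 11% with cytochalasin D, 25.6% with cytarabine and 9.6% with paclitaxel, so the counts with cytarabine and paclitaxel stand below or near their background. Called lower there were 884 of 6352 features with 5-FU, 657 of 7287 with cisplatin and 630 of 7233 with cytochalasin D. With cytarabine 1081 of 7002 were called lower, and with paclitaxel 564 of 7230. The glycolysis counts in the fit with the component also moved with single replicates. They were 2 with 5-FU without 5-FU replicate 1, 1 with paclitaxel without 5-FU replicate 2, and 0 or 1 with cisplatin without cisplatin replicate 1 or 2. With cytochalasin D the count was 0 without either of its own replicates, and 1 without any single replicate of cytarabine, cisplatin or paclitaxel.

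For the entry of pyruvate into mitochondria, 14 genes were listed, 9 are on the array and 6 were tested. PDK1 was the only one of the 6 called lower with cisplatin, paclitaxel and cytochalasin D, where 7.76%, 3.97% and 6.45% of all features were. With cytarabine DLD, a subunit gene of the pyruvate dehydrogenase complex, also fell (-0.43, limma adjusted p = 0.0359), and with 5-FU DLD alone did (-0.44, from the 1 replicate with both orientations). Over all features 11.1% were called lower with cytarabine and 12% with 5-FU. The list's counts were 1 with cytarabine and 0 with 5-FU without 5-FU replicate 1 or any single replicate of cytarabine, paclitaxel or cytochalasin D, and 2 with paclitaxel without either cisplatin replicate. Without the channel component all 9 were tested, and 2 passed with 5-FU, near the 20.9% of all features called there, 3 with cytarabine (25.6%), 4 with cisplatin (15.6%), 3 with paclitaxel (9.6%) and 2 with cytochalasin D (11%). The sister kinase genes PDK3 and PDK4 passed with no drug: PDK3 lay between 0.01 and 0.15, and PDK4 between -0.09 and 0.09. PDHA1, which encodes the subunit that the PDK kinases phosphorylate, had -0.12 to -0.32 and did not pass either.

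Among 17 listed genes that regulate hypoxia-inducible factors, 11 are on the array and up to 8 were tested. With cisplatin 4 of the 8 rose, where 8.49% of all features did, and none fell: HIF1A, EPAS1, which encodes the sister subunit HIF-2α (0.74, limma adjusted p = 0.0357), VHL, whose product marks the HIF subunits for destruction (0.62, adjusted p = 0.0123), and CITED2, a target and inhibitor of the factor (1.89, adjusted p = 0.0120, from 1 replicate). The median of the 8 was 0.37, against 0.01 over all features, but that of the 11 measured without the channel component was 0.02. Without cisplatin replicate 1, or without 5-FU replicate 1, 2 genes passed, and without the channel component 2 of the 11 rose and 1 fell, where 15.6% of all features were called. With 5-FU VHL fell by 0.96 together with HIF1A (from 1 replicate), and ARNT, the partner subunit gene, rose by 0.24 (adjusted p = 0.0404). Of all features 12% were called lower and 5.41% higher with 5-FU. With cytarabine ARNT was the only gene called, at 0.30 (adjusted p = 0.0352), a call lost without either replicate of cytarabine or cytochalasin D or without 5-FU replicate 2. There 21.7% of all features were called in either direction, so this count is not above its background. VHL, like HIF1A, moved with the channel component: its rises with cisplatin, paclitaxel (0.65) and cytochalasin D (0.45) were 0.19, 0.21 and 0.01 without it, and none of these passed. With the component, the call of VHL with paclitaxel, the only one of the list there, was lost without 5-FU replicate 1 or either paclitaxel replicate, and that with cytochalasin D without any single replicate except those of cisplatin. Of all features 2.6% were called higher with paclitaxel and 4.37% with cytochalasin D. EPAS1 and CITED2 passed with cisplatin without the channel component too, at 0.56 and 1.96.

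Of 28 listed targets of the factor outside glycolysis, 10 are on the array and 7 were tested. In the limma fit 0 of the 7 were called higher with any drug, also at an unadjusted p under 0.05. Over all features only 2.6% (paclitaxel) to 10.6% (cytarabine) were called higher, so 0 of 7 is near the background. Called lower were 3.97% (paclitaxel) to 12% (5-FU) of all features. Without the channel component 1 of 9 targets was called higher with cytarabine and 2 of 10 with cisplatin. In that fit 25.6% and 15.6% of all features were called in either direction with these drugs. IGFBP3, which encodes a binding protein of insulin-like growth factors, fell with every drug, with or without the channel component: by 0.63 with cytarabine, 0.38 with paclitaxel, 0.33 with cytochalasin D, 0.31 with 5-FU and 0.29 with cisplatin (limma adjusted p 0.00153 to 0.0253). STC2, a secreted glycoprotein gene, fell with cytochalasin D (-0.85), 5-FU (-0.55) and cisplatin (-0.42), and P4HA1, a collagen prolyl hydroxylase subunit gene, fell with cytarabine (-0.50). With cisplatin the 7 targets had a median of -0.20 against 0.01 over all features and beside a HIF1A ratio of 0.62. Without the channel component the 10 targets had a median of -0.06 beside a HIF1A ratio of 0.13, and ADM, the adrenomedullin gene, named here after its value was seen, was at 1.49 (adjusted p = 0.00169). The count was 0 with cisplatin without either cisplatin replicate or 5-FU replicate 1, and 0 with paclitaxel without either paclitaxel replicate or 5-FU replicate 1. It was 1 with 5-FU without 5-FU replicate 2, 1 with cytochalasin D without either of its replicates or 5-FU replicate 1, and 1 with cisplatin without 5-FU replicate 2 or either cytochalasin D replicate.

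**Figure D4:**
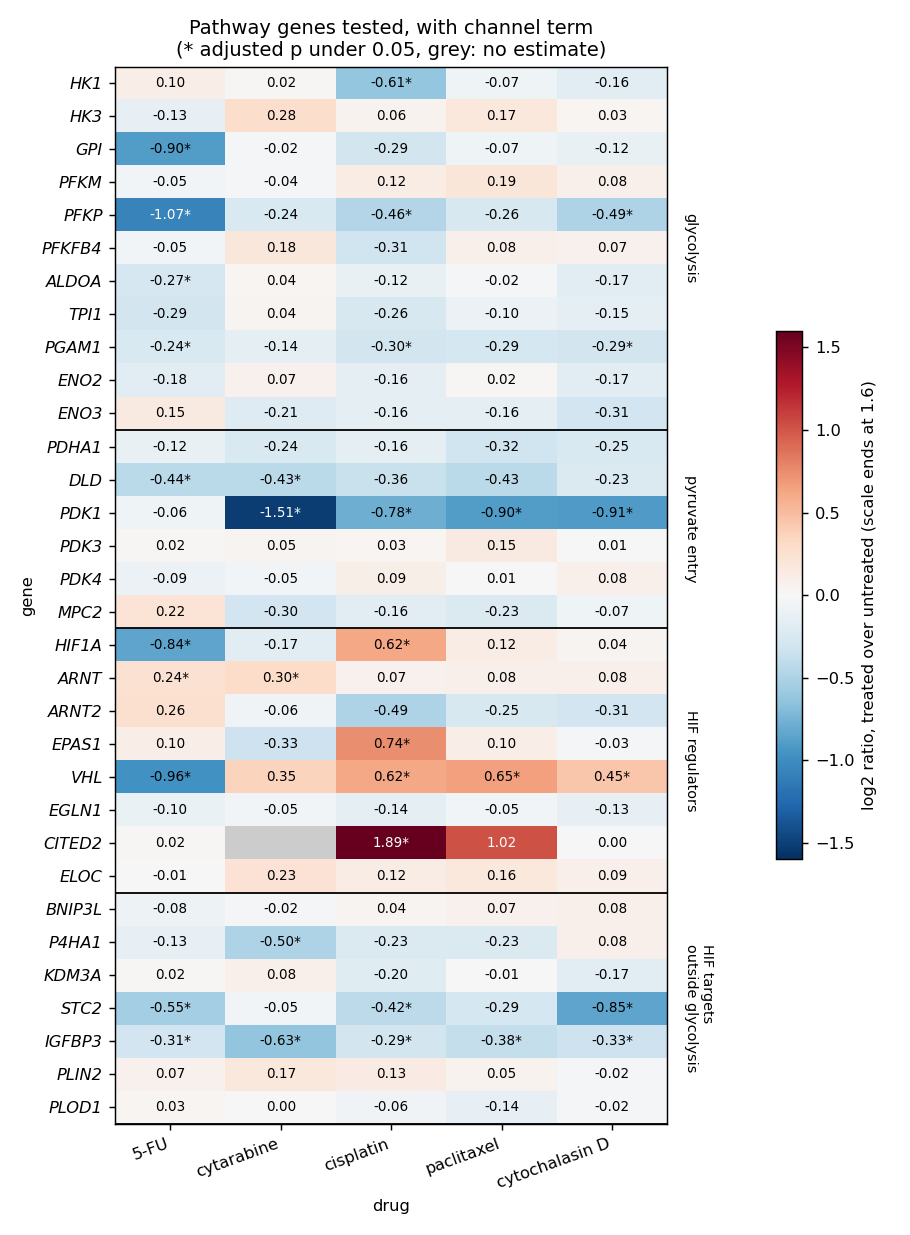
Fitted log2 ratio of treated over untreated RNA for each tested gene of 4 pathway lists (vertical axis) by drug (horizontal axis), in colour and as a number, with an asterisk where the adjusted p was under 0.05 and grey where no estimate could be made. PFKP and GPI are lowest with 5-FU, PDK1 is lowest with cytarabine, and PDK3 and PDK4 lie between -0.09 and 0.15 throughout.

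In the citric acid cycle 4 of 20 listed genes were tested. IDH3G, an isocitrate dehydrogenase subunit gene, fell with cytarabine (-0.87), paclitaxel (-0.57) and cytochalasin D (-0.57), with limma adjusted p of 0.00233 to 0.0204, 3 of the drugs with which PDK1 fell. Of all features 11.1%, 3.97% and 6.45% were called lower with these drugs. DLST, a subunit gene of the oxoglutarate dehydrogenase complex, rose with cytarabine (0.74, adjusted p = 0.0306), where 10.6% of all features were called higher. The count with cytarabine was 1 without cytarabine replicate 1 or 5-FU replicate 2, the call with paclitaxel was lost without either replicate of paclitaxel or 5-FU, and that with cytochalasin D without either of its replicates or 5-FU replicate 2. Without the channel component 7 genes were tested. With 5-FU, 2 of them fell, against 0 of 4 with the component: IDH2 (-1.01, adjusted p = 0.00502) and IDH3A (-0.82, adjusted p = 0.00176), named after their values were seen. There 884 of 6352 features were called lower, and 20.9% in either direction. With cisplatin 1 rose, IDH3A (0.40, adjusted p = 0.0128), where 480 of 7287 features were called higher. With cytochalasin D 2 fell, IDH3G and IDH3A (-0.42, adjusted p = 0.0146), where 630 of 7233 features were called lower. Of 7 pentose phosphate genes only RPIA, a ribose 5-phosphate isomerase gene, was tested. It rose with cytarabine (0.57), paclitaxel (0.39) and cytochalasin D (0.40), but without the channel component its ratios were 0.12, -0.06 and -0.05 and none passed. With the component, the paclitaxel call was lost without 5-FU replicate 2 or any single replicate of cisplatin, paclitaxel or cytochalasin D, and the cytochalasin D call without 5-FU replicate 2 or either of its own replicates. No gene of the gluconeogenesis list had the values the fit needs.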

How the data were processed

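The values are the authors' deposited log ratios of the channels of each array per probe, treated as log2. No source used here gives their base, numerator, normalization or spot filter. A natural log would multiply each size by 1.4427 and change no direction or call. Signal over background is unknown, as spot intensities were not used here. Of 8170 probes 5930 match 1 gene, 79 several and 2161 none in the platform annotation. The median of each array over its probes was set to 0, then the probes of a gene were averaged, and the turned arrays of a 5-FU replicate were averaged. Gene by gene least squares were fitted to 10 replicates and 1 observation of the channel component (weight 4, or 2 where only 1 pair gave it), with limma 3.58.1 moderation in R 4.3.3 and Benjamini-Hochberg adjustment over all features of a comparison. The fit was checked on simulated data.

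The genes and the 7 pathway lists (124 genes, 57 on the array) were chosen with earlier results of these data known. Named are the 4 genes, up to 3 called genes per list and drug with the largest change, MDM2, and the 3 genes most like each member; PGAM1 with 5-FU, HIF1A with cisplatin, and uncalled list genes (with values) were named after their values were seen. Same-numbered replicates of different drugs deviated with correlations of -0.08 to 0.08, so they were not treated as pairs. No pairing was seen, but weak correlations cannot show that there is none. Alternatives are given at the end.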

Additional observations from a re-analysis of the deposited data

Results flagged for a closer look

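GPI had 1 of its 4 arrays with 5-FU apart from the others. Replicate 2 with treated RNA in channel 2 read -0.72, while the other 3 arrays read -0.94 to -0.96. Its gap to the nearest array was 0.918 of the whole range. Of the 4 genes tested in this way on the 5-FU arrays only GPI stood out, and chance does this in about 1 in 20 groups of independent values. These arrays are not independent, since they are 2 replicates in both orientations, and 4 groups were tested. The 5-FU ratio of GPI passed the test with treated RNA in channel 2 alone, at -0.83, and with treated RNA in channel 1 alone, at -0.96.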

How the results depend on the processing

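For the 20 ratios of a gene and a drug against untreated RNA, 388 values were computed under 21 settings, and 358 kept direction and side of the threshold. A further 7, passing in neither fit, changed sign: with arrays scaled to the same spread GPI with cytarabine (0.04) and HIF1A with cytochalasin D (-0.02), with treated RNA in channel 1 alone PDK1 with 5-FU (0.05), with its own arrays alone HIF1A with paclitaxel (-0.36), and without 1 replicate GPI with cytarabine (up to 0.04 in 2 cases) and cytochalasin D (0.01). Many of the 388 values could not move in size, only in their p-value. Each gene has 1 probe, so single probes gave the same ratio, and the replicate block is balanced over the drugs. Leaving out a replicate of another drug, unless it was 5-FU, altered only the spread. The count kept is therefore no measure of robustness. Without the channel term GPI with cisplatin (-0.36) and HIF1A with cytarabine (-0.65) now passed, HIF1A with cisplatin (0.13) no longer did, and HIF1A with paclitaxel (-0.36) and cytochalasin D (-0.45) changed sign. With only features measured on every array, PFKP with cytarabine (-0.24) and GPI with cisplatin (-0.29) passed, as did the pairs GPI cytarabine minus cisplatin (0.28) and PDK1 cytarabine minus cytochalasin D (-0.60). With each drug's own arrays alone and no channel term, fewer samples set the spread: PFKP with 5-FU (-1.07), cisplatin (-0.27) and cytochalasin D (-0.30), GPI with 5-FU (-0.90), and HIF1A with 5-FU (-0.84) and cisplatin (0.13) did not pass, GPI with cisplatin (-0.36) and HIF1A with cytarabine (-0.65) did, and HIF1A with cytochalasin D changed sign (-0.45). Of the pairs, GPI between 5-FU and cytochalasin D (-0.72), HIF1A between 5-FU and cytarabine (-0.19), paclitaxel (-0.48) or cytochalasin D (-0.39) and between cisplatin and paclitaxel (0.49), and PDK1 between cytarabine and cisplatin (-0.73) were lost there too. With each drug's arrays alone 0 features passed with 5-FU, against 880 in the fit of all arrays, where 1421 had an unadjusted p under 0.05. Leaving out 1 replicate gave ranges of -0.52 to -0.40 for PFKP with cisplatin, -0.54 to -0.44 for PFKP with cytochalasin D, -0.35 to -0.24 for GPI with cisplatin, -0.85 to -0.72 for PDK1 with cisplatin and -0.96 to -0.83 for PDK1 with paclitaxel. The called pairs of drugs for PDK1 then ranged from 2 (without either 5-FU replicate) to 6, against 5. No pairing by replicate number was seen, and fitting a replicate block changed no call of the 4 genes, for example PDK1 with cytarabine at -1.51 (limma adjusted p = 0.00134). The causes were not tested. With 2 replicates a drug and 1 orientation for 4 drugs, the number of arrays limits the precision.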

Other observations

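Some genes of the same pathways lack a measured channel component and have values only without it, and the following were chosen after their values were seen. PDP1 encodes the phosphatase that removes the phosphate placed by PDK1 and reopens the pyruvate dehydrogenase complex. Its log2 ratios were -1.05 and -0.85 with cytarabine, -0.69 and -0.46 with paclitaxel, and -0.46 and -0.31 with cytochalasin D, but 1.01 and 0.89 with cisplatin. With no channel term it thus fell with 3 of the drugs with which PDK1 fell, and rose with cisplatin, with which PDK1 also fell (limma adjusted p 0.000648 to 0.0397). Its only 5-FU array read 0.16.

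PCK2, which encodes the mitochondrial enzyme that makes phosphoenolpyruvate, read -2.03 and -2.54 on the 2 arrays with 5-FU that measured it, both with treated RNA in channel 2. Its arrays read -0.60 and -0.81 with cisplatin and lay between -0.18 and 0.39 with the other drugs. With no channel term it fell with 5-FU (-2.29, limma adjusted p = 3.2e-05) and cisplatin (-0.70, adjusted p = 0.00839). PGK1, the glycolytic phosphoglycerate kinase gene, has no value with 5-FU, and with no channel term it fell with cytarabine (-0.61, adjusted p = 0.00114) and cisplatin (-0.43, adjusted p = 0.00738). How a channel difference bears on these genes was not tested.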
